A study of Mus musculus with 20 samples.

Results

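The genes described here encode the subunits of oxidative phosphorylation, measured on mouse arrays in thymocytes and thymic tumours with and without the transcriptional repressor Gfi1. They were taken as every gene whose array symbol begins with Ndufa, Ndufb, Ndufc, Ndufs, Ndufv, Sdh, Uqcr, Cox4 to Cox8 or Atp5 and that is named by probe sets carrying 1 symbol only. This gave 90 of 19607 genes and 468 probe sets, with a median of 4 probe sets per gene. The 5 genes with 1 probe set were Atp5j, Cox6b1, Cox7c, Ndufs5 and Uqcrb. Of the 90 genes, 35 belong to complex I, 4 to complex II, 7 to complex III, 19 to complex IV and 15 to the ATP synthase. Another 9 are assembly or accessory factors (Ndufaf1, Ndufaf2, Ndufaf3, Ndufaf4, Sdhaf1, Sdhaf2, Cox7a2l, Atp5s and Atp5sl). The prefix also caught Cox4nb, now named Emc8, which encodes a membrane protein complex subunit and not a respiratory one. Among the complex IV genes, 8 are alternative isoforms, counting Ndufa4l2, Cox4i2, Cox6a2, Cox6b2, Cox7a1, Cox7b2, Cox8b and Cox8c.

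All mice were C57BL/6. The 10 thymocyte arrays comprised 3 of irradiated Gfi1 KO, 3 of irradiated WT, 2 of untreated Gfi1 KO and 2 of untreated WT cells. The 10 tumour arrays comprised 2 Gfi1 KO and 2 WT tumours transformed by Notch1-CT and ENU, and 3 Gfi1 KO and 3 WT tumours transformed by ENU alone, a mutagen. According to the labels every tumour mouse carried floxed Gfi1 alleles and received ENU and, once a mediastinal tumour was growing, pIpC. Mx1Cre, which pIpC switches on, was carried by the KO mice alone, the Notch transgene by both Notch groups, and cells were explanted 2 to 3 weeks after pIpC. For the thymocytes the labels give neither the Gfi1 allele, nor the radiation dose and time, nor the age of the mice. Nothing in the labels says that the arrays of a group came from separate mice, so p-values measure the spread between these arrays, which may be technical.

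Oxidative phosphorylation runs on the inner mitochondrial membrane. Complex I (NADH dehydrogenase) and complex II (succinate dehydrogenase) pass electrons to ubiquinone, complex III hands them to cytochrome c, complex IV (cytochrome c oxidase) reduces oxygen, and the ATP synthase uses the proton gradient that complexes I, III and IV build. Most subunits are encoded in the nucleus, and factors such as NRF1, ETS proteins of the GABP type and YY1 are known regulators of many of them. Developing thymocytes are among the most radiation-sensitive cells of the body, and Gfi1 is known to protect T-lineage cells from death after DNA damage.

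Several arrays bear on what follows. Gfi1 was checked by its 8 probe sets. In untreated KO thymocytes probe set 2 stood at 5.62 and 5.67, against 12.07 and 11.83 in WT thymocytes. In irradiated KO thymocytes that probe set was instead higher than in irradiated WT cells, by 1.23, while probe sets 4 to 8 differed by -2.44 to -1.35, so untreated and irradiated KO thymocytes differed in which probe sets were lower. KO Notch tumours were low in probe set 2, at 6.31 and 7.10 against 11.43 and 11.01 in WT Notch tumours. In the ENU tumours labelled Gfi1 KO no Gfi1 probe set differed from WT by limma (smallest adjusted p 0.391), and they are called KO below as labelled. KO Notch tumour 2 stood apart: its mean over 11 thymocyte markers was 9.01 (10.53 to 12.87 on the other 19 arrays) and over 6 B cell markers 12.67 (7.59 to 9.71). KO ENU tumour 1 had the highest mean of 9 macrophage and dendritic cell markers, at 10.75.

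Levels are on the deposited log scale, taken as log2, and 86 of the 90 genes were bright enough to test. Those 4 left out were Cox7b2 and Cox8b, isoforms of testis and of heart and muscle, the isoform Ndufa4l2 and the complex I subunit Ndufb2. Their median positions were at percentiles 14.9, 19.6, 25.4 and 25.6 of the genes on an array. A gene is called where its limma p, adjusted over all genes tested by Benjamini-Hochberg, is below 0.05. By that rule 44 of the 86 members (51.2%) were called in at least 1 of 11 comparisons, against 61.8% of the 12346 genes tested in all of them.

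**Figure D1:**
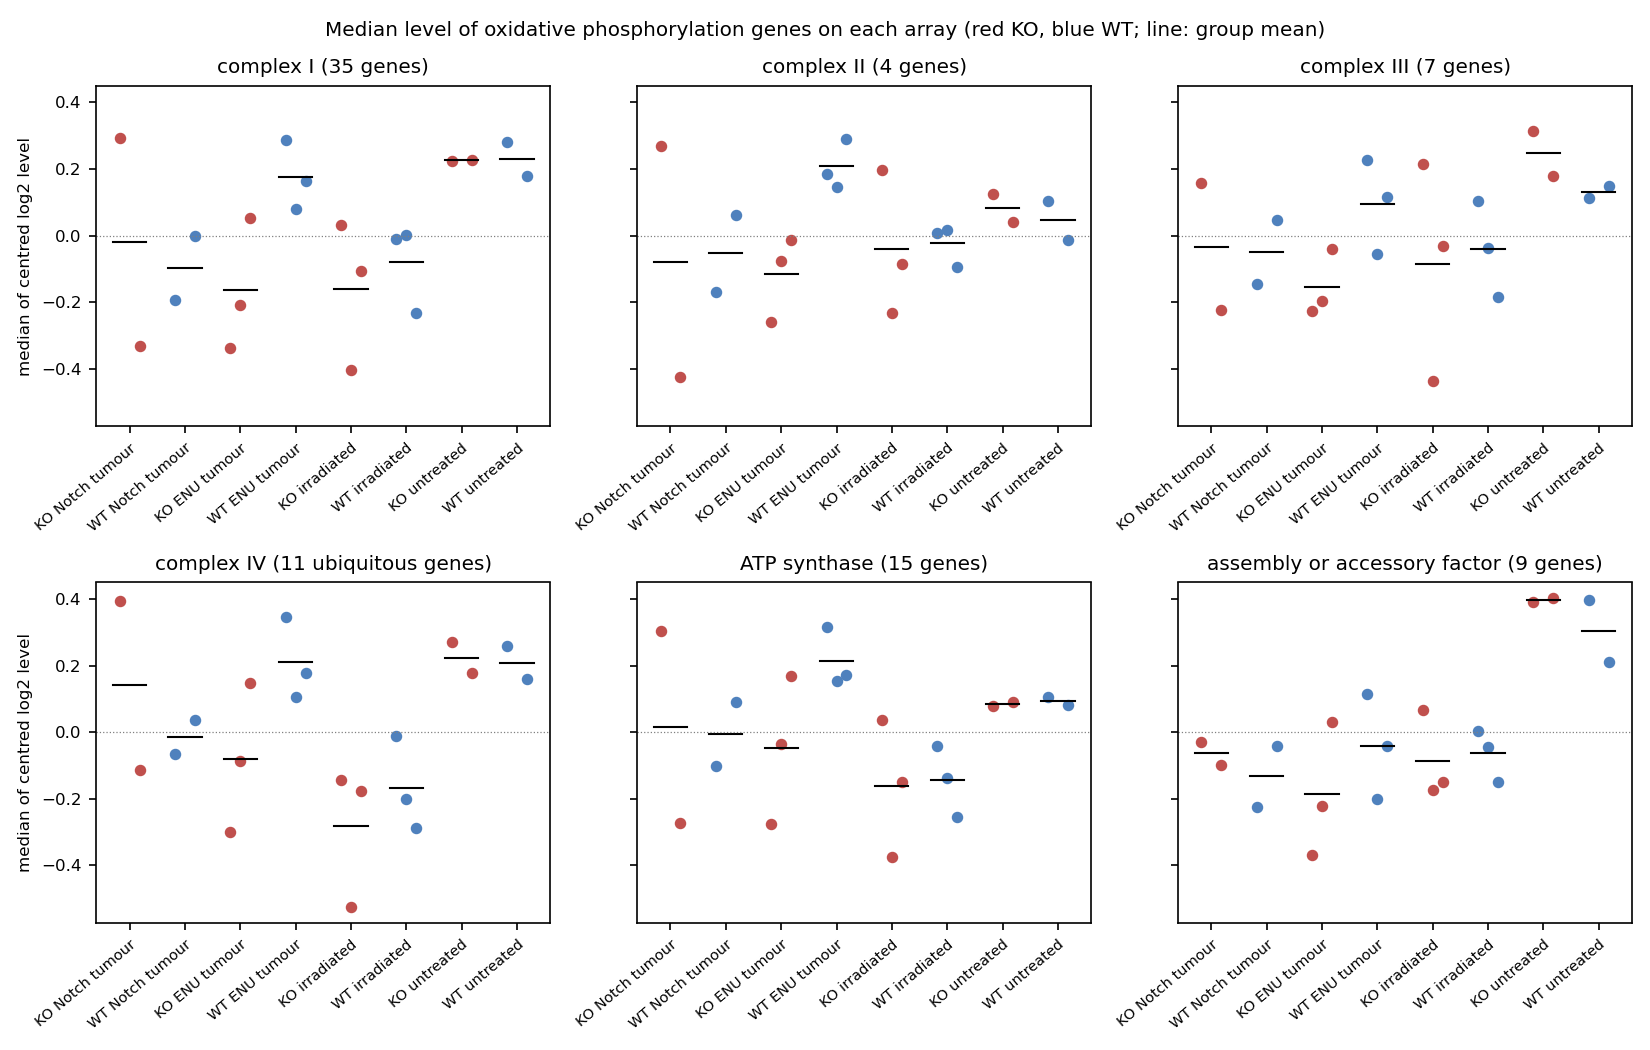
Median centred log2 level (each gene minus its mean over the 20 arrays) on each array, by complex, with 8 isoforms of complex IV left out; points are arrays, lines group means, red KO and blue WT. Untreated thymocytes sit high and close together for complex I (0.18 to 0.28), and irradiated thymocytes lower and further apart (-0.40 to 0.03).

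Across the 72 subunits without alternative isoforms, the median centred level was 0.03, -0.42 and -0.14 on the irradiated KO arrays and -0.01, -0.06 and -0.25 on the irradiated WT arrays. Untreated KO thymocytes stood at 0.17 on both arrays, and untreated WT thymocytes at 0.19 and 0.13. All 6 irradiated arrays thus lay below all 4 untreated ones, and the irradiated arrays of each genotype spread more widely than the untreated ones. The plot of medians by complex shows the same order within the irradiated KO group for complexes I, II, III and IV and the ATP synthase, with array 1 highest and array 2 lowest. Tumours spread as widely: 0.30 and -0.28 in KO Notch, -0.15 and 0.05 in WT Notch, -0.30, -0.15 and 0.13 in KO ENU and 0.28, 0.10 and 0.17 in WT ENU tumours. Over all genes tested in any fit the median lay between -0.089 and 0.045 on every array.

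**Figure D2:**
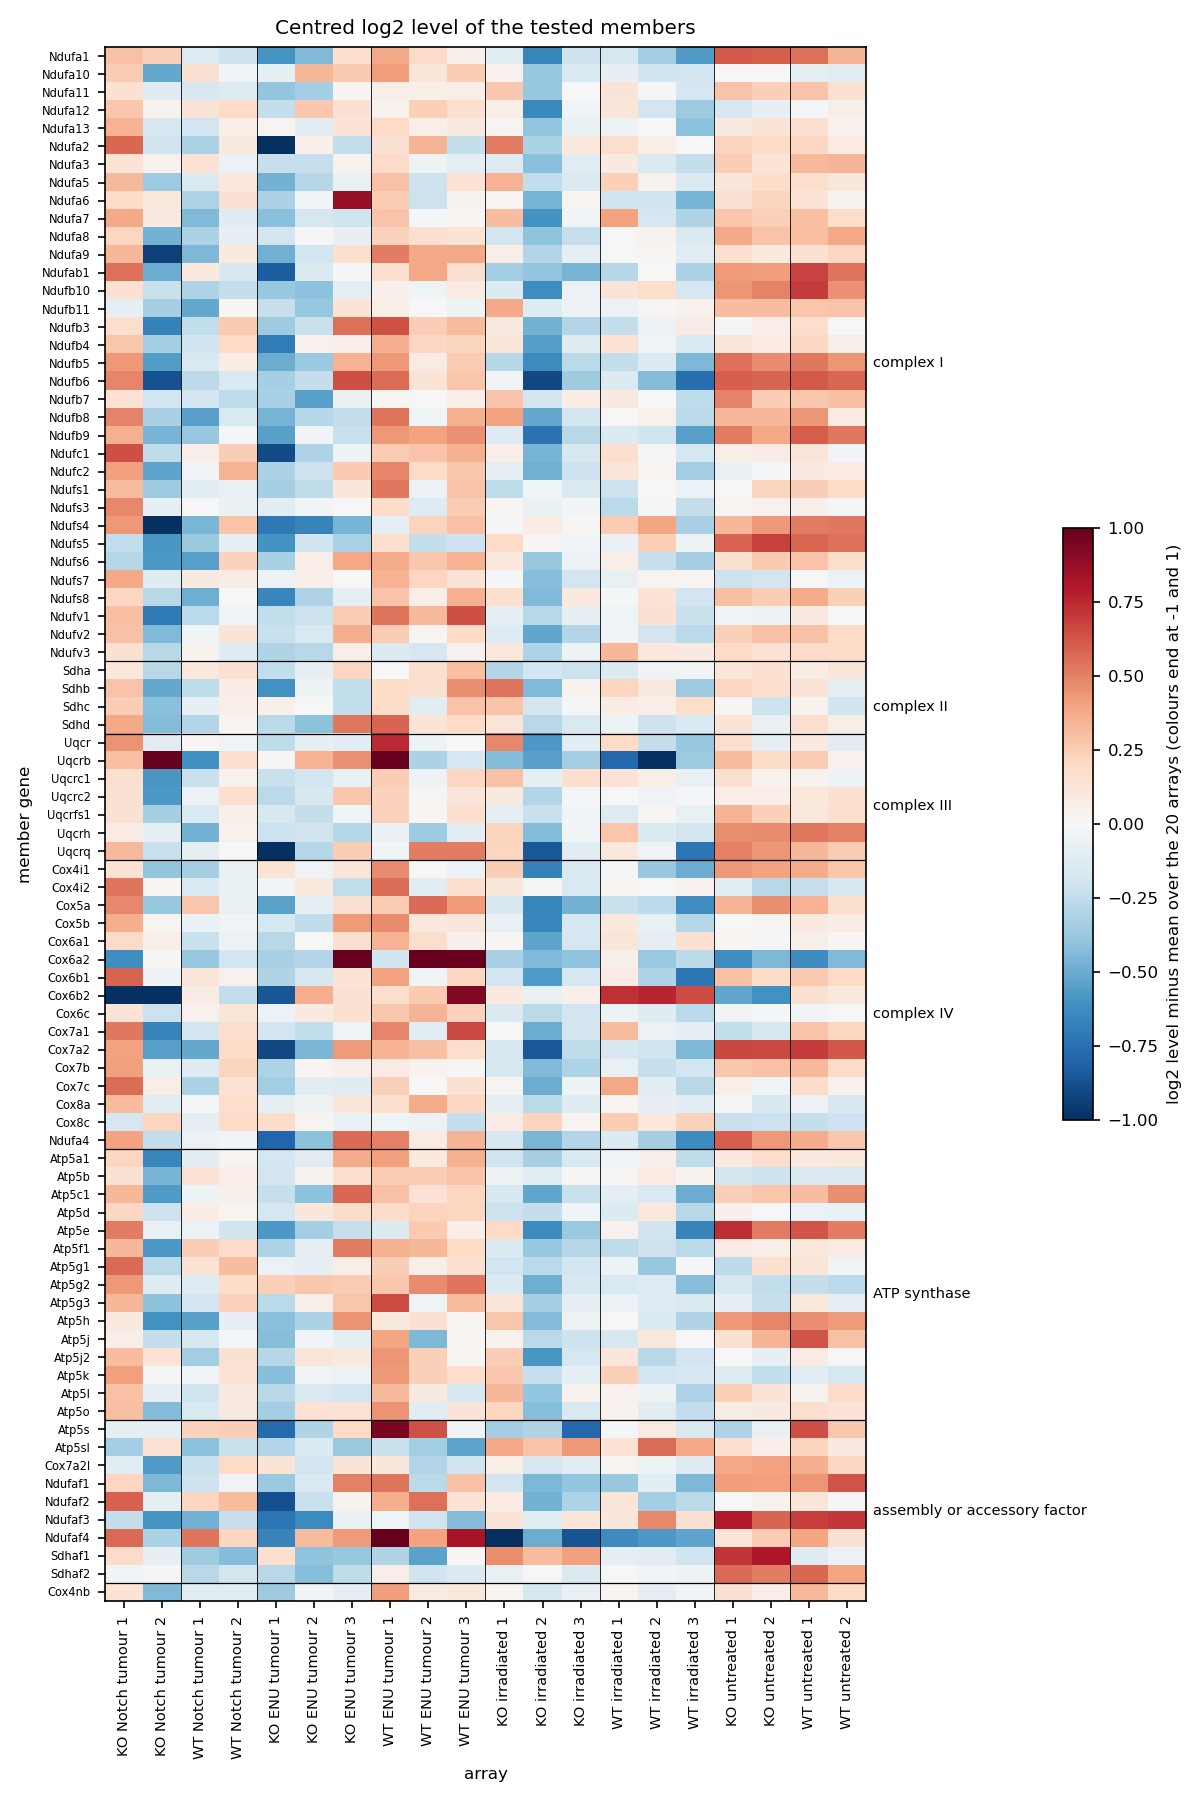
Centred log2 level of each tested gene (rows, by complex) on each of the 20 arrays (columns), with colours ending at -1 and 1. Red fills the untreated thymocyte columns for many complex I genes and the assembly factors, and blue the irradiated KO array 2.

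Irradiated thymocytes had lower levels of many respiratory genes than untreated thymocytes of the same genotype. In KO thymocytes 33 of the 86 tested members fell (38.4%, against 23.7% of all 12747 genes tested) and 2 rose (2.33%, against 15.1%); calls in either direction took 38.8% of all genes. In WT thymocytes 34 fell (39.5%, against 21.7% of all genes) and 3 rose (3.49%, against 13.0%), with 34.6% of all genes called in either direction. The median difference of the members was -0.28 in KO and -0.24 in WT thymocytes, beside -0.021 and -0.016 over all genes. The KO median moved to -0.14 without irradiated KO array 2 and to -0.39 without irradiated KO array 1. Fewer cells of a type and less RNA per cell cannot be told apart in these bulk samples. The labels do not say whether irradiated and untreated arrays were handled together, and in KO cells the 2 states also differ in their pattern of Gfi1 probe sets, so irradiation cannot be told apart from either.

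Lower calls in both genotypes were made for 28 members (32.6%, against 15.8% of all genes). They were 84.8% of the members that fell in KO and 82.4% of those that fell in WT thymocytes, against 66.7% and 73.0% over all genes; these differences were not tested. The same sign was found for 81 of 86 members, a larger share than the 80.9% of all genes, and this was not tested either. No member was called in the difference between the KO and the WT response (limma, 0 of 86, against 1.88% of all genes, 1.10% higher and 0.784% lower, smallest adjusted p 0.302), and 1 had an unadjusted p under 0.05. Each response is set against the untreated cells of its own genotype.

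**Figure D3:**
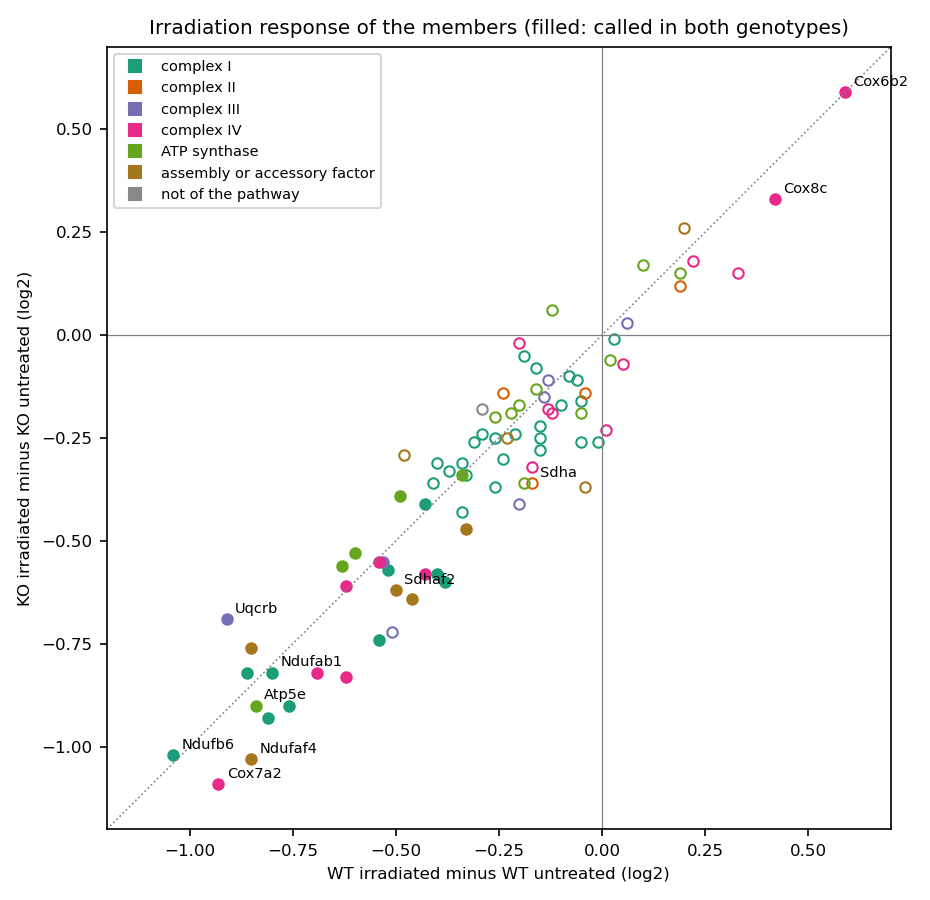
Log2 difference of irradiated minus untreated thymocytes for each tested member, in WT (x) and KO (y) cells, coloured by complex; filled points were called in the same direction in both genotypes, and the dotted line marks equal responses. Members lie along the line, with Ndufb6, Cox7a2 and Ndufaf4 at the low end and Cox6b2 and Cox8c at the high end.

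Of the 34 tested complex I genes, 10 fell in KO (29.4%, against 23.7% of all genes) and 14 in WT thymocytes (41.2%, against 21.7%). All 34 differences were below zero in KO and 33 in WT, where over all genes 52.0% and 51.9% were. Ndufb6, an accessory subunit of the membrane arm, stood at 11.23, 10.35 and 10.90 in irradiated KO and 11.85 and 11.84 in untreated KO thymocytes. In WT it stood at 11.12, 10.82 and 10.50 in irradiated and 11.87 and 11.83 in untreated cells. No irradiated array reached an untreated one. The difference was -1.02 ± 0.19 in KO (SE, limma adjusted p 0.000624) and -1.04 ± 0.19 in WT (0.000643), a fold of 2.03 and 2.05. Ndufab1, the mitochondrial acyl carrier protein, was tightly grouped: 9.73, 9.68 and 9.61 in irradiated KO cells against 10.50 and 10.49 in untreated KO cells, and 9.79, 10.08 and 9.76 in irradiated WT cells against 10.75 and 10.61 in untreated WT cells. Its groups did not overlap in either genotype, with differences of -0.82 ± 0.11 (limma adjusted p 2.63e-05) and -0.80 ± 0.11 (4.23e-05).

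Other accessory subunits fell by similar amounts. Ndufa1 differed by -0.93 (KO) and -0.81 (WT), Ndufb5 by -0.90 and -0.76 and Ndufb9 by -0.82 and -0.86. Core subunits of complex I, most of which carry the flavin or iron-sulphur clusters, moved less. Ndufv2 was called in both genotypes (-0.58 and -0.40) and Ndufv1 in neither (-0.10 and -0.08). Ndufs1 was called in WT (-0.31 ± 0.11, limma adjusted p 0.0387) and not in KO (-0.26 ± 0.11, 0.064). Over complexes I and II together, 2 of 10 core subunits were called lower in each genotype (20%, against 23.7% of all genes in KO and 21.7% in WT). Of 28 accessory subunits of complex I, 9 (KO, 32.1%) and 12 (WT, 42.9%) were. Core subunits had 4 to 19 probe sets and accessory subunits 1 to 11. Members with 5 or more probe sets had median differences of -0.26 (KO) and -0.2 (WT), and those with 1 to 4 had -0.32 and -0.28. These differences were not tested.

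Of the 4 succinate dehydrogenase genes, 1 fell in KO (25%, against 23.7% of all genes) and none in WT thymocytes (against 21.7%), near or below the shares of all genes. The flavoprotein subunit Sdha was called lower in KO thymocytes, at 10.80, 10.91 and 10.88 in irradiated against 11.21 and 11.25 in untreated cells (-0.36 ± 0.09, limma adjusted p 0.00613). In WT it stood at 10.96, 11.06 and 11.06 against 11.17 and 11.22 (-0.17 ± 0.09, 0.167), with no overlap but no call. Sdhb, Sdhc and Sdhd, the iron-sulphur subunit and the membrane anchors, were called in neither genotype, with differences between -0.24 and 0.19.

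Of the 7 complex III genes, 4 fell in KO (57.1%, against 23.7% of all genes) and 2 in WT thymocytes (28.6%, against 21.7%). The WT share was near that of all genes. Uqcrb, a small subunit that takes part in ubiquinone binding, was measured by 1 probe set. It stood at 10.15, 10.04 and 10.24 in irradiated KO cells against 10.90 and 10.77 in untreated KO cells. In WT it stood at 9.80, 9.45 and 10.22 in irradiated cells against 10.84 and 10.63 in untreated cells. The groups did not overlap, and the differences were -0.69 ± 0.16 (limma adjusted p 0.00287) and -0.91 ± 0.16 (0.000392). Uqcrh, the hinge protein, fell in both genotypes (-0.55 and -0.53), and Uqcrfs1, the Rieske iron-sulphur protein, and Uqcrq in KO (-0.41 and -0.72). The core protein Uqcrc1 did not pass the test in either (0.03 ± 0.12 and 0.06 ± 0.12).

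In complex IV the calls of ubiquitous subunits were all lower, 6 in each genotype, and the calls of tissue isoforms, which were dimmer, all higher, 2 in KO and 3 in WT. Of the 16 tested genes 37.5% were lower in each genotype, against 23.7% (KO) and 21.7% (WT) of all genes. The shares higher were 12.5% and 18.8%, against 15.1% and 13.0%. Cox7a2, the widely expressed form of subunit VIIa, had 9.86, 9.18 and 9.78 in irradiated KO against 10.70 and 10.69 in untreated KO thymocytes, and 9.87, 9.83 and 9.58 in irradiated WT against 10.73 and 10.65 in untreated WT thymocytes. Every irradiated array lay below every untreated one, with differences of -1.09 ± 0.16 (limma adjusted p 4.95e-05) and -0.93 ± 0.16 (0.000279). Of its 6 probe sets 5 were lower and 1 was higher in each genotype. Cox5a (-0.83 and -0.62), Ndufa4 (-0.82 and -0.69; first assigned to complex I and now counted in complex IV), Cox4i1 (-0.61 and -0.62), Cox7b (-0.58 and -0.43) and Cox6b1 (-0.55 and -0.54) were also called lower in both.

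Among the 5 tested isoforms none was called lower. Those called higher were dim, with median positions at percentiles 41.3 (Cox8c), 47.4 (Cox6b2) and 48.6 (Cox6a2) of the genes on an array. The 6 ubiquitous subunits called lower stood at 67.9 (Cox5a) to 99.5 (Cox6b1). Cox6b2, the testis form of subunit VIb, stood at 8.25, 8.08 and 8.21 in irradiated KO against 7.64 and 7.55 in untreated KO thymocytes, and at 8.89, 8.92 and 8.81 in irradiated WT against 8.31 and 8.25 in untreated WT thymocytes. Irradiated arrays were above untreated ones in both genotypes, by 0.59 ± 0.10 in each (limma adjusted p 0.000193 in KO and 0.000205 in WT), and all 6 of its probe sets were higher. Cox8c, another isoform, rose by 0.33 ± 0.10 (0.0147) and 0.42 ± 0.10 (0.00394). Cox6a2, the heart and muscle form of subunit VIa, was called higher in WT (0.33 ± 0.12, 0.0445) and not in KO (0.15 ± 0.12, 0.354); the WT call was kept in 1 of 5 fits that left out an array. Cox4i2 (0.18 and 0.22) and Cox7a1 (-0.02 and -0.20) were called in neither genotype.

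ATP synthase genes were called lower in 6 (KO, 40%, against 23.7% of all genes) and 5 (WT, 33.3%, against 21.7%) of 15 cases. Atp5e, the epsilon subunit of the F1 part, stood at 9.30, 8.47 and 8.73 in irradiated KO against 9.84 and 9.62 in untreated KO cells, and at 9.14, 8.90 and 8.43 in irradiated WT against 9.73 and 9.61 in untreated WT cells. The groups were separate although the irradiated arrays ranged widely, and the differences were -0.90 ± 0.20 (limma adjusted p 0.00228) and -0.84 ± 0.20 (0.00441). The gamma subunit Atp5c1 fell by 0.56 in KO and by 0.63 in WT cells. Of the large F1 subunits, the alpha subunit Atp5a1 was called in KO alone (-0.36 ± 0.11, 0.0144; -0.19 ± 0.11 in WT, 0.18), and the catalytic beta subunit Atp5b in neither genotype (0.15 and 0.19).

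Assembly and accessory factors were called lower in 6 of 9 cases in each genotype (66.7%, against 23.7% of all genes in KO and 21.7% in WT). The median differences were -0.47 (KO) and -0.46 (WT). Ndufaf4, a complex I assembly factor, stood at 7.27, 7.92 and 7.55 in irradiated KO against 8.54 and 8.67 in untreated KO cells, and at 7.79, 7.84 and 7.89 in irradiated WT against 8.81 and 8.57 in untreated WT cells. All irradiated arrays were lower, by 1.03 ± 0.15 (limma adjusted p 4.07e-05) and 0.85 ± 0.15 (0.000298) on the log2 scale. Ndufaf1 differed by -0.76 and -0.85, Ndufaf3 by -0.64 and -0.46, and Sdhaf2, which helps insert the flavin of Sdha, by -0.62 and -0.50. Over 2-fold falls were fitted for 3 members in KO and 1 in WT cells.

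Genes of neighbouring pathways were called in part, and the shares of all genes that fell, 23.7% in KO and 21.7% in WT, stand beside their counts. Of 16 tested genes of the citric acid cycle and pyruvate dehydrogenase, 7 (KO) and 6 (WT) fell and none rose, among them fumarase Fh1 (-0.66 and -0.48) and the isocitrate dehydrogenase subunit Idh3a (-0.69 and -0.55). Of 22 electron carriers and assembly factors outside the prefixes, 9 (KO) and 7 (WT) fell and 1 and 2 rose, with Tmem126b (-0.55 and -0.52) and Tmem70 (-0.59 and -0.47), assembly factors of complex I and of the ATP synthase, lower in both, Atpif1 higher in KO and Cox10 and Oxa1l higher in WT. Among 14 regulators, 5 fell in each genotype and Ppargc1b rose in WT; Myc fell by 1.79 in KO and 1.76 in WT cells, and Tfam, which packages mitochondrial DNA, by 0.59 and 0.42.

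Other lists of genes also changed between irradiated and untreated cells, some lower and some higher. Over all genes 23.7% (KO) and 21.7% (WT) fell and 15.1% and 13.0% rose. Of 55 cytosolic ribosomal protein genes, a list added after the data were seen, 30 (KO) and 25 (WT) fell, with medians of -0.39 and -0.32. Their array medians were -0.011, -0.465 and -0.153 in irradiated KO and -0.069, -0.159 and -0.379 in irradiated WT cells, the same order of arrays as for the respiratory subunits. Of 11 thymocyte markers 7 (KO) and 6 (WT) fell and 1 rose in KO, and their mean level was 12.32 to 12.47 in irradiated KO against 12.75 and 12.79 in untreated KO cells and 12.49 to 12.62 in irradiated WT against 12.84 and 12.87 in untreated WT cells. All 6 B cell markers fell in both genotypes, as did 5 of 7 macrophage and dendritic cell markers, with Itgax lower in KO alone and Msr1 in WT alone. Of 9 granulocyte markers 1 fell and 2 rose in KO, and 8 fell and 1 rose in WT. All 3 tested erythroid markers fell in KO, among them Hbb-b1 by 2.33, and none was called in WT. Of 8 proliferation genes 2 (KO) and 4 (WT) rose, and of 7 tested stromal genes 2 rose and 2 fell in each genotype. The part of these in the fall of the respiratory genes was not tested.

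Groups of arrays that did not overlap, with irradiated cells lower, were found for 48 members in KO (55.8%, against 36.1% of all genes) and 49 in WT cells (57.0%, against 33.0%). With irradiated cells higher there were 5 in KO (5.81%, against 30.1%) and 6 in WT (6.98%, against 23.9%). The calls of 22 of 35 members in KO and 15 of 37 in WT cells were kept when each array was left out in turn. Without irradiated KO array 1, 53 members were called, and without untreated WT array 1, 16. A fit of all 20 arrays left 6 members in KO (Atp5e, Cox7b, Ndufa1, Ndufa8, Ndufb10 and Sdhaf2) and 2 in WT (Ndufa1 and Sdhaf2).

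Promoters of the members were read from RefSeq (GRCm38.p6), over 250 bases before and 30 after the start, for the 75 members with an entry. Letters of 3 motifs were searched on both strands: CCGGAAG for ETS proteins, GCGCATGCG for NRF1 and AAGATGGCG for YY1; none contains another. The ETS letters were in 19 of 75 members (25.3%) and in 8 of the 25 with an entry that fell in both genotypes (32.0%), against 12.4% of 17491 protein-coding genes. NRF1 letters were in 8 members (10.7%, against 2.5%) and YY1 letters in 2 (2.67%, against 1.53%). Of the 25 that fell in both genotypes, 2 held the NRF1 letters (8.0%) and 1 the YY1 letters (4.0%). Whether the letters go with the fall was not tested. A match is a description of the letters and not a binding site. Shown are Ndufaf4, Ndufa8 and Atp5j, the members lower in both genotypes that hold the NRF1 letters (Ndufaf4 and Ndufa8) or the YY1 letters (Atp5j), and Sdhaf2, Cox6b2 and Ndufaf3, which were among the 6 members called in 4 comparisons and had the smallest p-values of them. Capitals mark the motif letters on either strand; Cox6b2, which rose, and Ndufaf3 hold none of them.
Ndufaf4 (chr4:24897833-24898112, + strand): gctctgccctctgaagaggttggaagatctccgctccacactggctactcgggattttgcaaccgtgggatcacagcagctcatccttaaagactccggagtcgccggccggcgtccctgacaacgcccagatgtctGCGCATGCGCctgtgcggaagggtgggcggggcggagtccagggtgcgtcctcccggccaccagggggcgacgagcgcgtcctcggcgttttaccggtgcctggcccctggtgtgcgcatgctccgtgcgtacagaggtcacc
Ndufa8 (chr2:36049309-36049588, - strand): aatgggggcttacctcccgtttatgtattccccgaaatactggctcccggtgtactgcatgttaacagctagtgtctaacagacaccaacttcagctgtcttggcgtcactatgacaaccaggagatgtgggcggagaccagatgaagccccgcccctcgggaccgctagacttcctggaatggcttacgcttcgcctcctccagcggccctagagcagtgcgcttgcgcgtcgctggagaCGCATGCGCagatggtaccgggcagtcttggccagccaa
Atp5j (second entry, chr16:84834947-84835226, - strand): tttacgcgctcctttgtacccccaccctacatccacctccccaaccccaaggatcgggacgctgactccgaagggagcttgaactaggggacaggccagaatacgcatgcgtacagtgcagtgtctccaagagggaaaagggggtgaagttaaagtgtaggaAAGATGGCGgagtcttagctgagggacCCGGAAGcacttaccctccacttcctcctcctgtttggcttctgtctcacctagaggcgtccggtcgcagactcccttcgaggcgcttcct
Sdhaf2 (chr19:10525180-10525459, - strand): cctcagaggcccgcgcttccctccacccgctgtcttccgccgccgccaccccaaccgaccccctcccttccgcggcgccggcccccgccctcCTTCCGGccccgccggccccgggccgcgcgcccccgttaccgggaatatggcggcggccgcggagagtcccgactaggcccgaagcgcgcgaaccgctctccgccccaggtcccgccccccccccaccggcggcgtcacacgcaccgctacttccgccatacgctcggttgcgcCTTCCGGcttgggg
Cox6b2 (chr7:4753065-4753344, - strand): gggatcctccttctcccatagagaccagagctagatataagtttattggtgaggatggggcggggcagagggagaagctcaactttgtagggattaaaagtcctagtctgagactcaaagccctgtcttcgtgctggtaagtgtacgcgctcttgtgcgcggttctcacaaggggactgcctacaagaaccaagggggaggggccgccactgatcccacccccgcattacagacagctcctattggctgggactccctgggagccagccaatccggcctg
Ndufaf3 (chr9:108567407-108567686, - strand): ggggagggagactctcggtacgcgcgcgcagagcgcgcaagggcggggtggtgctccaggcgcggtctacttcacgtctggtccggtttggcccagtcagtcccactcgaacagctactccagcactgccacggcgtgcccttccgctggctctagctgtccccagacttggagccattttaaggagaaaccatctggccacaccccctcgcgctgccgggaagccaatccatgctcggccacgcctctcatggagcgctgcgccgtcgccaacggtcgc

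Between KO and WT thymocytes few respiratory genes differed. In untreated cells 3 of 86 members were called (3.49%, against 12.3% of all genes), and in irradiated cells 3 (3.49%, against 14.9%). In both states they were Cox6b2 and Atp5s, which were lower in KO, and Sdhaf1, which was higher in KO. By direction, 2 were lower (2.33%, against 5.49% in untreated and 6.81% in irradiated cells) and 1 higher (1.16%, against 6.79% and 8.12%). KO arrays lay below WT arrays without overlap for 21 members in untreated (24.4%, against 33.3% of all genes) and 5 in irradiated cells (5.81%, against 13.4%), and above them for 14 (16.3%, against 28.6%) and 1 (1.16%, against 11.8%). The median difference over members was -0.01 in untreated and -0.06 in irradiated cells.

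**Figure D4:**
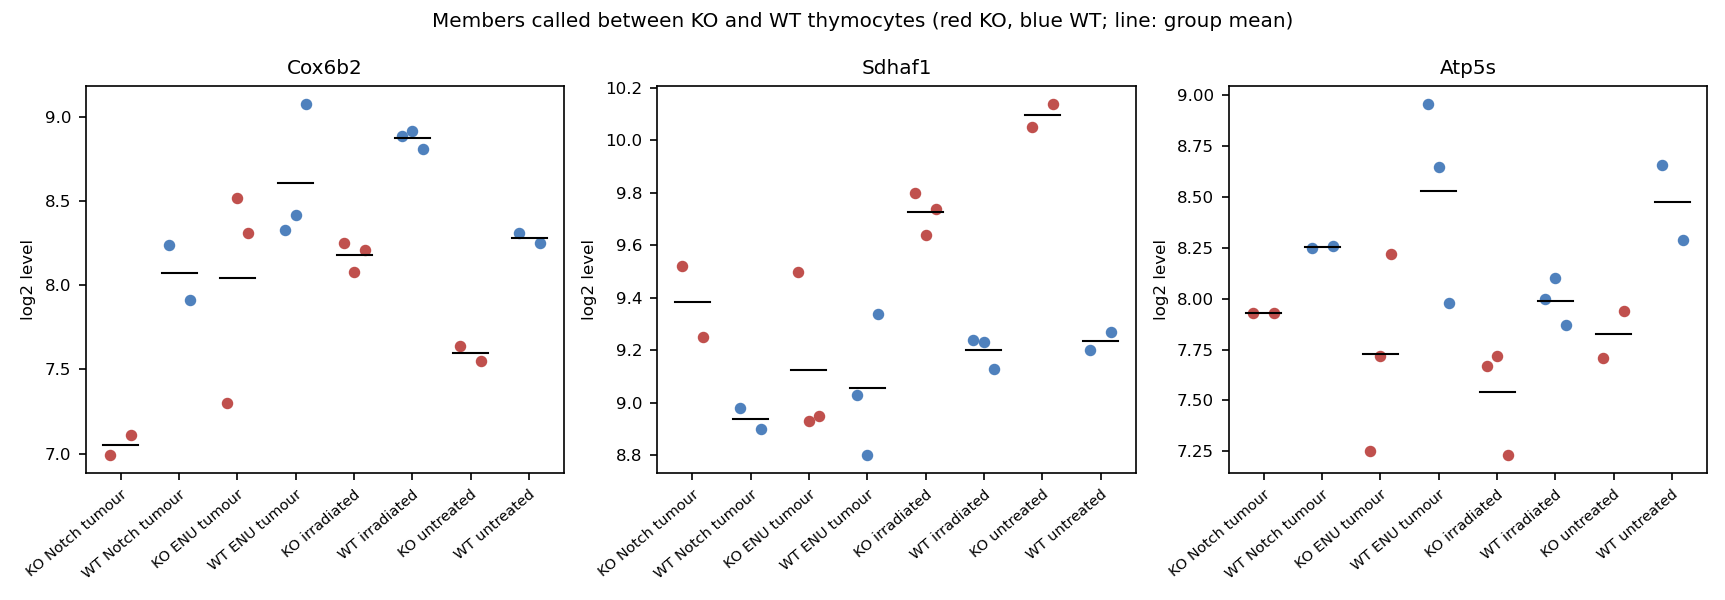
Log2 level of Cox6b2, Sdhaf1 and Atp5s on each array by group; points are arrays, lines group means, red KO and blue WT, and the y axes do not start at 0. Within untreated and within irradiated thymocytes KO and WT arrays do not overlap for any of the 3 genes.

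Cox6b2 stood at 7.64 and 7.55 in untreated KO against 8.31 and 8.25 in untreated WT thymocytes, and at 8.25, 8.08 and 8.21 in irradiated KO against 8.89, 8.92 and 8.81 in irradiated WT thymocytes. KO arrays were lower in both states without overlap. The difference was -0.69 ± 0.11 in untreated (limma adjusted p 0.000257) and -0.69 ± 0.09 in irradiated cells (1.82e-05), and all 6 probe sets were lower in KO. Irradiated KO cells thus reached the level of untreated WT cells, and the difference of the irradiation responses did not pass the test (-0.01 ± 0.14, adjusted p 0.994).

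Sdhaf1, an assembly factor that helps mature the iron-sulphur subunit of complex II, stood at 10.05 and 10.14 in untreated KO against 9.20 and 9.27 in untreated WT thymocytes. In irradiated cells it stood at 9.80, 9.64 and 9.74 in KO against 9.24, 9.23 and 9.13 in WT. All KO arrays were higher, by 0.86 ± 0.11 (limma adjusted p 2.67e-05) and 0.53 ± 0.09 (0.000333). Its levels are the median of 4 probe sets; the differences of single probe sets ran from -0.01 to 1.05 in untreated and from 0.23 to 1.05 in irradiated cells. After irradiation Sdhaf1 was called lower in KO (-0.37 ± 0.10, limma adjusted p 0.00718), with 2 of 4 probe sets lower and the call lost without untreated KO array 2 (0.0984), and it was not called in WT (-0.04 ± 0.10, 0.791). The difference of the responses was -0.33 ± 0.14 (0.302).

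Atp5s, also known as Dmac2l, an accessory factor linked to the ATP synthase, stood at 7.71 and 7.94 in untreated KO against 8.66 and 8.29 in untreated WT cells, and at 7.67, 7.72 and 7.23 in irradiated KO against 8.0, 8.10 and 7.87 in irradiated WT cells. KO was lower without overlap, by 0.65 ± 0.16 (limma adjusted p 0.0125) and 0.45 ± 0.13 (0.0274). The call in untreated cells was lost without WT array 1 or KO array 1 (adjusted p up to 0.2), and that in irradiated cells without WT array 1, WT array 2 or KO array 3 (up to 0.164). Calls of Cox6b2 and Sdhaf1 were kept when any 1 array was left out. In the fit of all 20 arrays Sdhaf1 in untreated cells alone stayed below the threshold (0.0446).

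Most members showed little difference by genotype. The subunits taken to stand for each complex, Ndufs1, Sdha, Uqcrc1, Cox4i1 and Atp5a1, differed by -0.10 to 0.11 in untreated and by -0.16 to 0.10 in irradiated cells, none called. Cell type markers differed between the genotypes as well: 8 of 9 granulocyte markers were lower in untreated KO cells and 7 in irradiated KO cells, and 5 of 7 macrophage and dendritic cell markers were higher in untreated KO and 6 of 7 in irradiated KO cells. All 3 erythroid markers were higher in untreated KO (Hbb-b1 by 4.13) and 2 in irradiated KO cells (Hbb-b1 by 2.21). Of 6 B cell markers 3 were higher in untreated KO, and 4 higher and 1 lower in irradiated KO cells, and the stromal list had Cldn4 and Epcam higher in both states. Of 11 thymocyte markers 1 was lower in untreated KO cells (Dntt, -0.68) and 3 in irradiated KO cells (Dntt by 0.91, Ptcra by 0.48 and Thy1 by 0.27). Among 8 proliferation genes 0 were called in untreated cells and 4 were lower in irradiated KO cells. The part of all these lists in the 3 calls was not tested.

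In tumours no member was called between KO and WT. In Notch tumours 0 of 86 passed (limma, against 0.0154% of 13025 genes; smallest adjusted p 0.805; 2 members at an unadjusted p under 0.05). In ENU tumours 0 of 86 passed (against 0% of all genes; smallest adjusted p 0.351; 11 members at an unadjusted p under 0.05). The difference between both KO effects likewise gave 0 members (against 0%; smallest adjusted p 0.637; 8 at an unadjusted p under 0.05).

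Differences in ENU tumours were below zero for 80 of 86 members (93.0%, against 57.0% of all genes). Members measured on the same arrays are not independent, so such counts are a description and were not tested. By the median centred level of the 72 subunits the groups overlapped, with KO ENU tumour 3 at 0.13 and WT ENU tumour 2 at 0.10. The median difference of the members was -0.28, beside -0.073 over all genes. Arrays of KO lay below all WT arrays without overlap for 29 members (33.7%, against 19.0%), and above for none (against 10.4%). Ndufb9 was at 10.75, 11.27 and 11.07 in KO ENU tumours against 11.73, 11.70 and 11.75 in WT ENU tumours, a difference of -0.70 ± 0.23 (adjusted p 0.351). Ndufs1, Sdha, Uqcrc1, Cox4i1 and Atp5a1 differed by -0.41 to -0.07. The genes called between KO and WT thymocytes overlapped here. Cox6b2 stood at 7.30, 8.52 and 8.31 in KO ENU against 8.33, 8.42 and 9.08 in WT ENU tumours. Sdhaf1 stood at 9.50, 8.93 and 8.95 against 9.03, 8.80 and 9.34, and Atp5s at 7.25, 7.72 and 8.22 against 8.96, 8.65 and 7.98. Leaving out KO ENU tumour 1, the array rich in macrophage markers, moved the median to -0.21, and leaving out KO ENU tumour 3 moved it to -0.42. Thymocyte markers averaged 10.57, 11.60 and 11.07 in KO ENU against 12.15, 11.72 and 11.81 in WT ENU tumours, and proliferation genes 11.10, 11.81 and 11.80 against 12.14, 12.18 and 12.27. Erythroid markers averaged 9.48, 9.90 and 8.63 in KO ENU against 8.21, 8.05 and 7.97 in WT ENU tumours without overlap, and B cell markers 7.93, 9.55 and 9.66 against 7.59, 7.65 and 8.41. Their part in the lower levels was not tested.

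In Notch tumours the median difference was 0.02, and it turned on single arrays: it was -0.27 without KO Notch tumour 1 and 0.34 without KO Notch tumour 2, the array with B cell markers. Cox6b2 kept the order seen in thymocytes, at 6.99 and 7.11 in KO against 8.24 and 7.91 in WT Notch tumours (-1.03 ± 0.40, adjusted p 0.806). Sdhaf1 was at 9.52 and 9.25 in KO against 8.98 and 8.90 in WT Notch tumours (0.44 ± 0.25, 0.807). Both genes were apart between these groups, unlike in ENU tumours, and neither passed the test. Over the members, KO arrays lay above WT arrays for 10 (11.6%, against 11.7% of all genes) and below for 3 (3.49%, against 17.4%). Ndufs1, Sdha, Uqcrc1, Cox4i1 and Atp5a1 differed by -0.22 to 0.08.

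Between the WT tumour types no member was called either (Notch minus ENU, limma, 0 of 86, against 0.0230% of all genes, 0.0154% higher and 0.00768% lower; smallest adjusted p 0.642; 2 at an unadjusted p under 0.05). Notch tumours were lower than ENU tumours for 79 of 86 members (91.9%, against 55.6% of all genes), with a median of -0.23 beside -0.042 over all genes. For 35 of these the groups did not overlap (40.7%, against 21.8%), and none lay above (against 13.0%). As above, members on the same arrays are not independent, and these counts were not tested. Proliferation genes averaged 11.83 and 11.92 in WT Notch against 12.14, 12.18 and 12.27 in WT ENU tumours, and macrophage and dendritic cell markers 8.52 and 8.31 against 9.02, 9.28 and 9.09, both without overlap; their part in the lower levels was not tested. Ndufv1, the flavin-carrying core subunit of complex I, stood at 10.39 and 10.63 in WT Notch against 11.19, 10.98 and 11.30 in WT ENU tumours (-0.65 ± 0.30, 0.677). Ndufs1, Sdha, Uqcrc1, Cox4i1 and Atp5a1 differed by -0.34 to -0.03.

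Against untreated WT thymocytes, WT Notch tumours had 5 members lower (5.81%, against 5.54% of all 13520 genes) and none higher (against 2.14%). WT ENU tumours had 6 lower (6.98%, against 10.2%) and 2 higher (2.33%, against 9.87%). These shares were near or below those of all genes, which were called in either direction at 7.68% (Notch) and 20.1% (ENU), and both comparisons use the same 2 untreated WT arrays. Tumours lay below thymocytes without overlap for 48 members in Notch (55.8%, against 35.6%) and 23 in ENU tumours (26.7%, against 26.9%), and above for 15 (17.4%, against 32.1%) and 21 (24.4%, against 27.9%). The members lower in Notch tumours, Ndufaf3, Ndufb10, Ndufs5, Uqcrh and Sdhaf2, were also called lower in ENU tumours, where Atp5sl was lower too (-0.52). Median differences were -0.21 in Notch tumours (-0.08 without WT Notch tumour 1 and -0.32 without tumour 2) and 0.02 in ENU tumours (-0.07 without WT ENU tumour 1). Markers differed as well: 7 of 9 granulocyte markers were lower in each tumour type (S100a8 -3.16 in Notch and -3.50 in ENU). Of 11 thymocyte markers 2 were lower in Notch (Cd4 -2.34 and Rag2 -4.23) and 1 in ENU (Cd4 -2.29), and none was higher. Of 8 proliferation genes 1 (Notch) and 4 (ENU) were higher, Mki67 in both (1.00 and 1.31). Of 7 tested stromal genes 2 were higher in ENU, among them Pdgfrb (4.0), and none was called in Notch. Of 9 macrophage and dendritic cell markers Lyz2 was lower in Notch (-1.77) and Cd68 higher in ENU (1.45). The part of these markers in the calls was not tested.

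Ndufaf3, a complex I assembly factor, stood at 9.38 and 9.63 in WT Notch and 9.82, 9.66 and 9.43 in WT ENU tumours, against 10.55 and 10.57 in untreated WT thymocytes. All tumours were lower, by 1.06 ± 0.21 (Notch, limma adjusted p 0.00894) and 0.93 ± 0.19 (ENU, 0.00423). Sdhaf2 stood at 9.39 and 9.48 in Notch and 9.73, 9.47 and 9.53 in ENU tumours, against 10.24 and 10.06 in untreated cells, again without overlap (-0.71 ± 0.11, 0.00251, and -0.57 ± 0.10, 0.00186). Ndufb10 and Ndufs5, accessory subunits of complex I, differed by -0.85 and -0.78 in Notch and by -0.55 and -0.65 in ENU tumours, and Uqcrh by -0.73 and -0.69. These 5 genes had also fallen after irradiation in both genotypes, in comparisons that share the untreated WT arrays for WT. Of the 5 subunits that stand for the complexes none was called, with differences of -0.53 to 0.03 in Notch and -0.18 to 0.18 in ENU tumours. Counts rested on single arrays: without untreated WT array 1 or 2, 2 members were called in ENU tumours, and 0 and 1 in Notch tumours.

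ENU tumours rose in Atp5g2, which encodes the ring subunit c of the ATP synthase, and in Cox6a2. Atp5g2 was at 12.29, 12.49 and 12.55 in WT ENU tumours against 11.78 and 11.76 in untreated WT cells (0.68 ± 0.16, limma adjusted p 0.0101). Every tumour was above both thymocyte arrays, and all 7 of its probe sets were higher. KO ENU tumours had 12.26, 12.29 and 12.27.

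**Figure D5:**
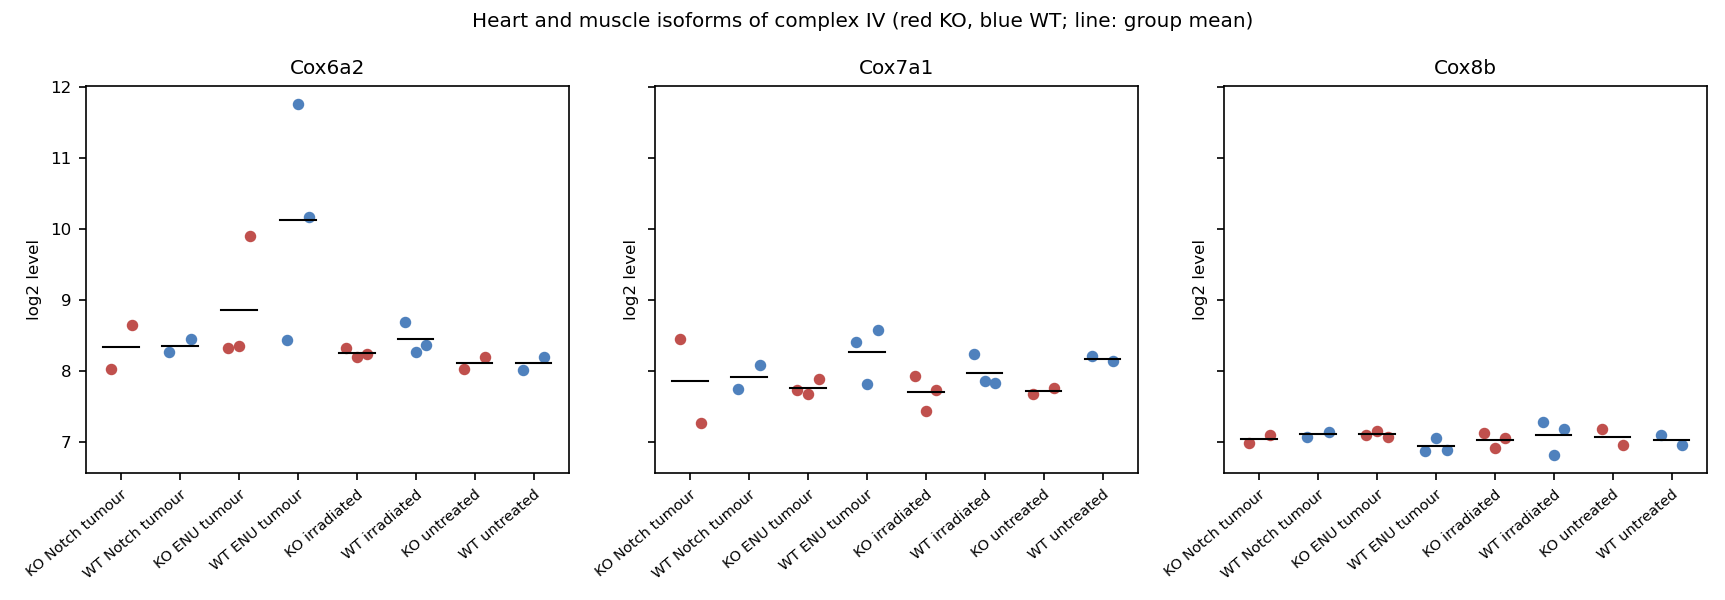
Log2 level of the heart and muscle isoforms Cox6a2, Cox7a1 and Cox8b on each array by group, on 1 y axis that does not start at 0; red KO, blue WT, lines group means. Cox6a2 stands at 9.90 to 11.77 on 3 ENU tumour arrays and at 8.69 or below on the others.

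Cox6a2 varied more than any other member within a group. It stood at 8.32, 8.35 and 9.90 in KO ENU tumours and 8.44, 11.77 and 10.17 in WT ENU tumours, and between 8.01 and 8.69 on the 14 arrays of the other 6 groups. Thus 3 of 6 ENU tumours, of both labelled genotypes, were high and the others at the common level. The WT ENU difference from untreated WT cells was 2.02 ± 0.65 (limma adjusted p 0.0403; SD 1.66 over 3 tumours), all 4 probe sets were higher, and of the 5 fits that left out an array the call was kept without WT ENU tumour 1 alone (range 1.20 to 2.86). Cox7a1 lay between 7.26 and 8.58 on all arrays, and Cox8b was dim throughout. Lists added after the data were seen stand beside it, with arrays in the same order. The skeletal muscle gene Ckm, a creatine kinase, was at 8.68, 8.63 and 8.52 in KO ENU and 8.33, 8.56 and 8.37 in WT ENU tumours, against 8.25 and 8.55 in untreated WT thymocytes, and Acta1 was at 8.05, 8.14 and 7.97 in KO ENU and 7.91, 8.08 and 7.95 in WT ENU tumours. Mylpf, Tnnt3 and Myh4 likewise stayed within 1 log2 unit over the 6 ENU tumours. Of 3 plasmacytoid dendritic cell genes, Bst2 was at 9.37, 9.22 and 9.55 in KO ENU and 9.02, 9.56 and 9.54 in WT ENU tumours. Siglech was at 7.76, 7.95 and 7.71 in KO ENU and 7.49, 7.66 and 7.44 in WT ENU tumours, and Ccr9 at 11.11, 13.26 and 13.05 in KO ENU and 11.42, 12.03 and 12.22 in WT ENU tumours. Among the 6 ENU tumours Bst2 had its higher values on the arrays where Cox6a2 was high, and Siglech did not. Ccr9 was highest in KO ENU tumour 2, where Cox6a2 was at 8.35. On the 10 thymocyte arrays Ccr9 stood at 13.57 to 13.88, so its level here is not particular to plasmacytoid dendritic cells. Beyond these tumours Bst2 was higher still where Cox6a2 was low. It stood at 10.09 and 9.83 in untreated WT and 10.05 and 9.83 in untreated KO thymocytes, and at 9.65 in KO Notch tumour 2. Cox6a2 was at 8.01 to 8.20 and at 8.65 there. The part of such cells in the Cox6a2 level was not tested.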

How the data were processed

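Total RNA was amplified with a NuGEN kit and labelled with biotin for the arrays, per the labels' protocols. The authors deposited 1 table of log2-like values for 182058 probe sets on 20 arrays, from 3.37 to 15.01; no source used here states the log base, background correction or normalization. The values were taken as log2 and used as deposited, so folds hold only if the base is 2. Of the probe sets, 167016 name 1 gene (19607 genes), 3388 several and 11654 none; only the first were used.

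Each gene's value is the median of its row-centred probe sets plus their mean level. Genes above the 40th percentile of an array on at least 2 arrays of a fit were tested with limma 3.58.1 (R 4.3.3), with Benjamini-Hochberg adjustment over all genes tested and a threshold of 0.05. The 10 thymocyte arrays, the 10 tumour arrays and, for tumours against thymocytes, all 20 arrays were fitted apart; each design was checked on simulated data. Figures used matplotlib 3.10.9. The number of arrays limits the precision.

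The members and lists were chosen with earlier results of these data known. Named were, per comparison, up to 10 members with the largest rise and 10 with the largest fall among those called with separate groups, all where 5 or fewer were called, the complex IV isoforms, and Ndufs1, Sdha, Uqcrc1, Cox4i1 and Atp5a1; other genes were picked after their values were seen. Alternatives were quantile normalization, no filter on dim genes, the mean of probe sets, probe sets with repeated values left out, a replicate block, other sets of arrays in the fit and each array left out.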

Additional observations from a re-analysis of the deposited data

How the results depend on the processing

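Counts of called members moved with the arrays that share a fit. With all 20 arrays in 1 fit, they were 6 (KO) and 2 (WT) for irradiated against untreated thymocytes, and 1 (untreated) and 0 (irradiated) for KO against WT, beside 35, 37, 3 and 3. Of 405 single results in that fit, 69 lost their call and none changed direction. Most of the 405 had not been called in the main fits and had no call to lose. With only the 2 groups compared, WT Notch tumours against untreated WT thymocytes gave 11 in place of 5. Without KO Notch tumour 2, left out after the data were seen, the tumour comparisons with untreated thymocytes gave 8 (Notch) and 12 (ENU). Leaving out 1 array at a time gave 24 to 53 (irradiated KO), 16 to 34 (irradiated WT), 0 to 6 (WT Notch against untreated) and 2 to 9 (WT ENU against untreated). Of 3060 single results so obtained, 119 lost and 12 gained a call. Here too most results had not been called in the main fits, so 3060 is not the number of calls at risk. Quantile normalization, no filter, the mean of probe sets and leaving out repeated probe sets kept each count within 1.5 times. The replicate numbers did not pair the samples: deviations of arrays with the same number correlated between -0.467 and 0.22 over the comparisons. With the replicate block the counts were 35 (irradiated KO), 29 (irradiated WT), 3 and 3 (KO against WT thymocytes), 4 (Notch) and 6 (ENU against untreated), and 0 elsewhere. The cause of these changes was not tested. In no setting did a called member change direction.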
